A study of Homo sapiens with 4 samples.

Results

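MICAL1 is the gene of an actin-oxidising monooxygenase, and its expression was followed across the 4 arrays of a study of LNCaP, a human prostate cancer line that responds to androgens. It was found by its symbol in the deposited table, which gave 1 probe set of 33297 and 1 gene of the 2548 that could be named. Most annotated probe sets carried no gene name, so any further MICAL1 probe set among them would have been missed. The gene had been chosen because it was higher with the androgen in both siRNA arms, so its hormone difference is given as a description with no test. The cells had received siControl or siPOTEF-AS1, an siRNA against the antisense long noncoding RNA POTEF-AS1, 48 h before they were given ethanol vehicle or 10 nM dihydrotestosterone (DHT), the potent natural androgen. All 4 groups, vehicle included, had spent the 3 days before hormone in 2.5% charcoal-treated serum without phenol red, a medium depleted of steroids. The groups were thus siControl with vehicle, siControl with DHT, siPOTEF-AS1 with vehicle and siPOTEF-AS1 with DHT, with 1 array in each. How long the hormone was applied is not stated in the labels, and LNCaP is a single cell line, so no other prostate cells are represented.

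MICAL proteins are flavin enzymes that use NADPH and oxygen to oxidise methionine residues of actin, which takes filaments apart. Methionine sulfoxide reductases of the MSRB family undo this oxidation, and the enzyme is held inactive until partners such as plexins, the receptors of semaphorins, or Rab GTPases release it. Androgens act on transcription through response elements in DNA, made of paired copies of a short motif, and control much of the secretory gene programme of prostate cells.

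The MICAL1 probe set (ENSG00000135596) was annotated to the Ensembl transcript ENST00000456101 on chromosome 6, 109765265 to 109776848, minus strand, GRCh37, a span of 11584 bases. The annotation classed that transcript as one with a retained intron in a protein-coding gene, and 24 of the 1344 expressed named genes, MICAL1 among them, were represented by a transcript of this class. The positions of the probes within the gene were not given, so spliced and intron-holding MICAL1 RNA could not be told apart. RefSeq lists 2 start sites for the gene, 10077 bases apart. Both start-site windows, from 250 bases before to 50 after the start, are shown because the gene differed with an androgen. Capitals mark the androgen response element hexamer AGAACA, searched on both strands. Sequences are from RefSeq, GRCh38.p14, minus strand, written in the direction of the gene: the first lies at chr6:109465919-109466218 and the second at chr6:109455842-109456141.
MICAL1 window 1: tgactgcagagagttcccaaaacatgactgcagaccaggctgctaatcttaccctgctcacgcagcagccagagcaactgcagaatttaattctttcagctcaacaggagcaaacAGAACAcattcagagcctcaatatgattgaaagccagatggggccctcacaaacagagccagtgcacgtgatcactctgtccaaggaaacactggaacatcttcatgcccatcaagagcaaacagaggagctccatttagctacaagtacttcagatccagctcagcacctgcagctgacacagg
MICAL1 window 2: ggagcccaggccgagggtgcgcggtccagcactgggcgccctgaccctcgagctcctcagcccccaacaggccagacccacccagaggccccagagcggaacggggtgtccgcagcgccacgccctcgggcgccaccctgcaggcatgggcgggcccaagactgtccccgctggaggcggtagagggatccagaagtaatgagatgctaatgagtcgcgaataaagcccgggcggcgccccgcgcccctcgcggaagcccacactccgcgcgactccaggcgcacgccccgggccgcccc

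The first window held the hexamer once, beginning 135 bases before the annotated start, and overlapped ZBTB24, a neighbouring zinc finger gene. The second, with a GC content of 73% against 49% in the first, held none. The paired motif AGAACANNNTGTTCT was in neither window. Of 35116 such windows in the table, 14.8% held the hexamer and 1 held the paired motif. Of the 13 named genes at least 2-fold higher with DHT in both arms, 10 had a window in the table, and 3 of these held the hexamer in at least 1 window: MICAL1, SGK1 and POTEF. Over all genes with a window the share was 17.5%. The 10 genes were taken for their DHT difference, MICAL1 among them, and genes differ in their number of windows. Nothing is therefore read from this count. A match of this length is a description of the letters and not a binding site.

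Each value is a log2 signal after RMA, the method with which the authors corrected background, normalised the arrays and summarised the probes of a probe set. A gene was taken as expressed when 1 array or more reached 6.50, the median over the named genes on all arrays. This floor is not a detection call. Pearson correlations between arrays over all probe sets lay between 0.988 and 0.995 and array medians between 6.72 and 6.77. RMA had already brought the arrays to a common distribution, so these values say little about whether an array stood apart. The table carried no probe set named for POTEF-AS1, so the knockdown itself was not checked. None of the 10 luminal prostate markers listed for LNCaP was measured by name. Of the 16 markers listed for basal, stromal, leukocyte and endothelial cells, 2 basal keratins were measured. KRT15 lay below the floor on all 4 arrays, at 5.28 to 5.59, and KRT5 was at 5.98 to 6.57.

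MICAL1 was higher with DHT in both siRNA arms, about 4-fold in each. In siControl cells its log2 signal was 7.34 with vehicle and 9.32 with DHT. In siPOTEF-AS1 cells it was 7.64 with vehicle and 9.67 with DHT. Both DHT arrays thus lay above both vehicle arrays, and the lower of the DHT values exceeded the higher of the vehicle values by 1.68. All 4 values lay above the brightness floor, so folds are given. The difference was 1.98, or 3.96-fold, with siControl and 2.03, or 4.08-fold, with siPOTEF-AS1. The mean over both arms was 2.01 ± 0.02, where the error is the distance of either arm from the mean. In these whole-culture RNA samples, more MICAL1 RNA per cell and a larger share of cells with the transcript cannot be told apart.

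**Figure D1:**
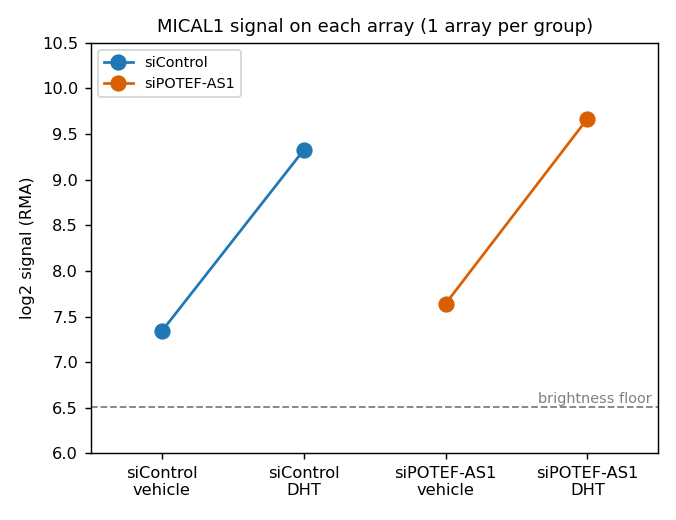
MICAL1 log2 signal (RMA, vertical axis) on each of the 4 arrays, 1 point per array, with lines joining vehicle to DHT within an siRNA arm and a dashed line at the brightness floor of 6.50. Both DHT values, 9.32 and 9.67, lie above both vehicle values, 7.34 and 7.64.

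The order of the levels was siControl vehicle, siPOTEF-AS1 vehicle, siControl DHT and siPOTEF-AS1 DHT, from the lowest to the highest. With 1 array per group there is no spread over samples to set the neighbours in this order against. The steps between siRNAs at the same hormone were 0.30 and 0.35, and the step between the vehicle and the DHT arrays was 1.68.

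The 2-fold mark that MICAL1 passed in each arm was passed upward by 17 of the 1344 expressed named genes in siControl cells, or 1.26%, by 15 in siPOTEF-AS1 cells, or 1.12%, and by 13 in both, or 0.967%. MICAL1 was chosen on this contrast, so nothing is read from these shares. It ranked seventh by the mean DHT difference of the named genes, and 6 named genes equalled or exceeded it in both arms. Among 13747 expressed annotated probe sets, most of them without a gene name in the tables used here, 33 others were at least as high in both arms. The genes just above MICAL1 in the mean difference were AGR2, which encodes a disulfide isomerase family protein, at 2.35 from vehicle values below the floor, the growth factor receptor gene IGF1R at 2.48 and TARP, which is read from the gamma chain locus of the T cell receptor, at 2.64. Just below it were LRIG1, whose product dampens receptor tyrosine kinases, at 1.72, POTEF at 1.51 and the transcriptional regulator ID2 at 1.34.

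**Figure D2:**
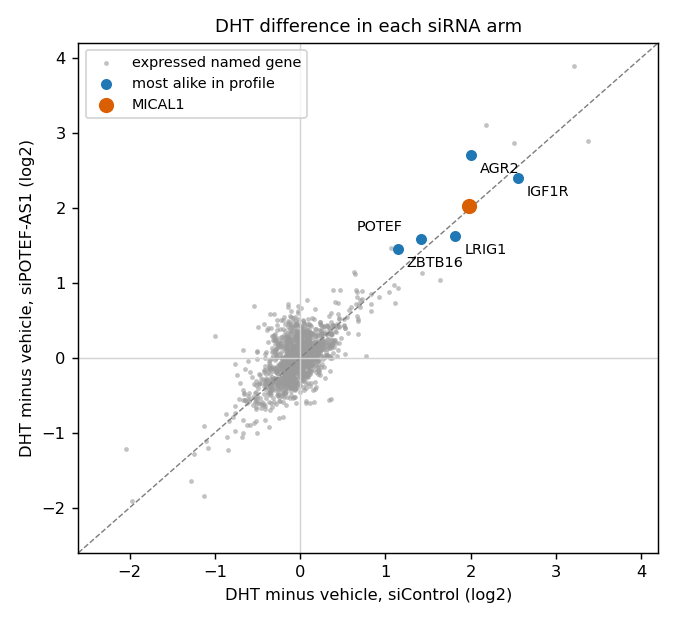
DHT minus vehicle (log2) of each expressed named gene in siControl cells (horizontal axis) and in siPOTEF-AS1 cells (vertical axis), 1 point per gene, with the dashed line marking equal differences. MICAL1, at 1.98 and 2.03, lies close to that line, and the 5 genes most like it in profile are labelled.

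The DHT response of MICAL1 was alike in size in both arms. It was 0.04 larger with siPOTEF-AS1 on the log2 scale, and this difference of responses has no residual degree of freedom and could not be tested. It became -0.04 with arrays centred on their medians, so its sign is not settled. Of all expressed named genes, 15.8% had a difference of responses closer to 0. The rest of the 13 genes higher with DHT in both arms had gaps between the arms of 0.15 for IGF1R, the next smallest, to 0.92 for TARP, with a median over all 13 of 0.36. Only 8 of the 13, among them MICAL1, IGF1R and TARP, lay above the brightness floor on all 4 arrays, and the gaps of the other 5 rest on at least 1 vehicle value below it. A difference of responses of at least 2-fold in either direction was seen in 0.149% of expressed named genes, and MICAL1 was not among them.

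With siPOTEF-AS1, MICAL1 was slightly higher than with siControl in both hormone treatments, and the difference did not pass the test. The log2 difference was 0.30 in vehicle, or 1.23-fold, and 0.35 in DHT, or 1.27-fold, both below the 2-fold mark, which 0% of expressed named genes passed upward in vehicle and 0.149% in DHT. In vehicle 42 of the other named genes were higher than MICAL1 by this difference, and in DHT 46. In both treatments together, 7 named genes had differences at least as large as those of MICAL1. With siRNA and hormone as additive terms, limma over all 1344 genes and 4 arrays gave a knockdown difference of 0.32 with a standard error of 0.10 and a 95% interval of 0.09 to 0.56, which is not adjusted for the number of genes. The limma p was 0.0158 before and 0.747 after Benjamini-Hochberg adjustment, and it was the 27th smallest of the 1344. No gene passed an adjusted p of 0.05 in this fit, or 0%, while 62 had an unadjusted p under 0.05, or 4.61%. Each gene leaves 1 residual degree of freedom in this model, which takes the DHT effect to be equal in both arms.

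**Figure D3:**
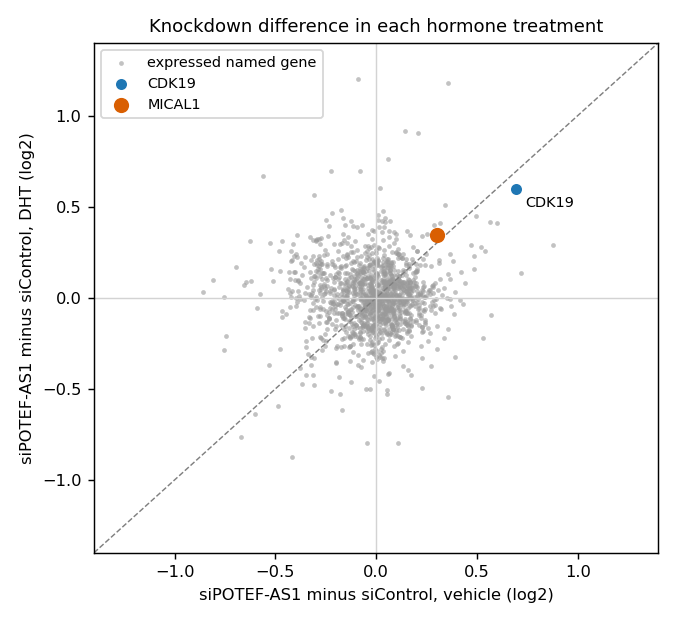
siPOTEF-AS1 minus siControl (log2) of each expressed named gene with vehicle (horizontal axis) and with DHT (vertical axis), 1 point per gene, with the dashed line marking equal differences. MICAL1, at 0.30 and 0.35, lies at the upper right of the main cloud. CDK19, the nearest expressed named gene among those with coordinates in the table, lies at 0.69 and 0.59.

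Few genes of the MICAL1 pathway could be read by name. Of 97 genes listed as actin-oxidising enzymes and reductases, actins and filament-turnover factors, semaphorins and plexins, MICAL1 partners and regulators, or flavin monooxygenases of other families, 4 were measured, MICAL1 included. None of the other 3 was 1.5-fold higher with DHT in both arms, a mark passed by 2.46% of expressed named genes, so nothing is read from this count. MICAL2, MICAL3, the MSRB reductases, the actins and the cofilins are not analysed here by name.

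Of the upstream signalling list, 2 of 36 genes were measured. SEMA6C, a transmembrane semaphorin gene, had log2 signals of 6.97 with vehicle and 6.90 with DHT in siControl cells, and of 7.17 and 6.90 in siPOTEF-AS1 cells. The semaphorin receptor gene PLXND1 had 6.67 and 6.51 in siControl cells and 6.66 and 6.67 in siPOTEF-AS1 cells. Both were thus within 0.27 of their vehicle value with DHT in either arm, close to the brightness floor. RAB8A, the gene of a Rab GTPase of vesicle transport, represented the 20 listed partners and regulators, and its signal was 9.42 to 9.47 on the 4 arrays. The knockdown differences of these 3 genes had limma adjusted p-values of 0.97 to 0.993.

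Genes that share a Gene Ontology term with MICAL1 in the deposited table gave a wider view. These groups were formed after seeing how few listed genes were named, and are described without a test. Some shared terms, the broad ones among them, are not described in full. Of 56 other genes of signal transduction, 1 was 2-fold higher with DHT in both arms, NR4A1 at 1.43 and 1.12. Of 386 other genes of protein binding, 7 were, against 0.967% of all expressed named genes, and nothing is read from these counts. Of 20 other expressed genes annotated with actin binding, none was 1.5-fold higher or lower with DHT in both arms, against 2.46% and 1.64% of all expressed named genes, shares at which few or no calls are expected in a group of this size. Their median mean difference was -0.03, against -0.01 over all, and they ranged from -0.56 to 0.35. The highest was DNASE1, a DNA-cutting enzyme that binds actin, at 0.36 and 0.33 in the siControl and siPOTEF-AS1 arms. The actin-nucleating subunit genes ARPC2 and ARPC5L and the capping protein gene CAPZA1 each differed by at most 0.20 in size in either arm. MYLK, the gene of a myosin light chain kinase, was the lowest but for a thymosin pseudogene, at -0.50 and -0.61.

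Of 46 other genes of the cytoskeleton term, 1 was 1.5-fold higher in both arms. Over all expressed named genes 2.46% were 1.5-fold higher and 1.64% lower in both arms. With so few genes per group, nothing is read from the counts given here. The higher cytoskeleton gene was ARHGAP26, which encodes a GTPase-activating protein, at 0.72 and 0.88. It was also the only one of the 11 other genes of SH3 domain binding to be so, while the fucosyltransferase gene FUT8 was 1.5-fold lower in both, at -0.84 and -1.22. The tubulin gene TUBA4A was the lowest of the cytoskeleton genes, at -0.60 and -0.55. The group medians were -0.03 for cytoskeleton and 0.04 for SH3 domain binding. None of the 9 other intermediate filament genes, among them KRT5 and the synemin gene SYNM, was 1.5-fold apart in both arms. Of the 12 other genes annotated as negative regulators of apoptosis, the transcriptional regulator gene TSC22D1 was 1.5-fold higher in both arms, at 1.04 and 0.88. The tumour necrosis factor family gene TNFSF18 was lower, at -2.04 and -1.22. Its signals with DHT, 5.31 with siControl and 6.49 with siPOTEF-AS1, lay below the brightness floor, so the sizes of these differences are uncertain.

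The enzyme side was as sparse. FAD binding, sulfur oxidation and actin filament depolymerization were terms of MICAL1 alone among the expressed named genes. CYP2J2, a cytochrome P450 epoxygenase gene, was the only other with monooxygenase activity, and it differed by -0.59 and -0.20 with DHT. Of the 26 other genes of oxidation and reduction, 1 was 1.5-fold higher in both arms, against 2.46% of all expressed named genes. This was the sterol dehydrogenase gene NSDHL at 0.66 and 0.81, and the group median was -0.06. Nothing is read from this count.

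**Figure D4:**
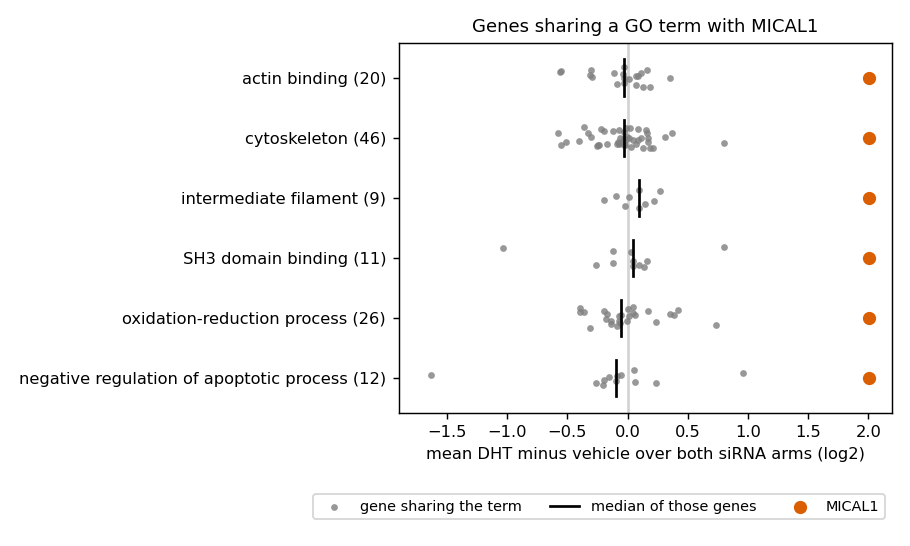
Mean DHT minus vehicle over both siRNA arms (log2, horizontal axis) of expressed named genes that share each of 6 Gene Ontology terms with MICAL1, with the number of genes in brackets, 1 grey point per gene, a black bar at the median and MICAL1 in orange. The medians lie near 0, and MICAL1 lies at 2.01.

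The genes whose profile over the 4 arrays was most like that of MICAL1 were other genes that were higher with DHT. Likeness was the root mean square distance between log2 profiles, each centred on its own mean, over the 4 arrays. LRIG1 was nearest at 0.18, followed by POTEF at 0.26, AGR2 also at 0.26, IGF1R at 0.28 and the zinc finger repressor gene ZBTB16 at 0.37. The median distance of the other 1343 expressed named genes was 1.03. LRIG1 had log2 signals of 9.47 with vehicle and 11.29 with DHT in siControl cells, and of 9.70 and 11.32 in siPOTEF-AS1 cells. POTEF lay below the floor with vehicle in siControl cells, at 6.30, and AGR2 with vehicle in both arms, at 6.05 and 6.25. The pattern was chosen for its DHT difference, so genes with a DHT difference of like size stand near it by construction. Pearson's r over 4 arrays, given as a description, exceeded 0.95 for 100 genes and separated them poorly.

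**Figure D5:**
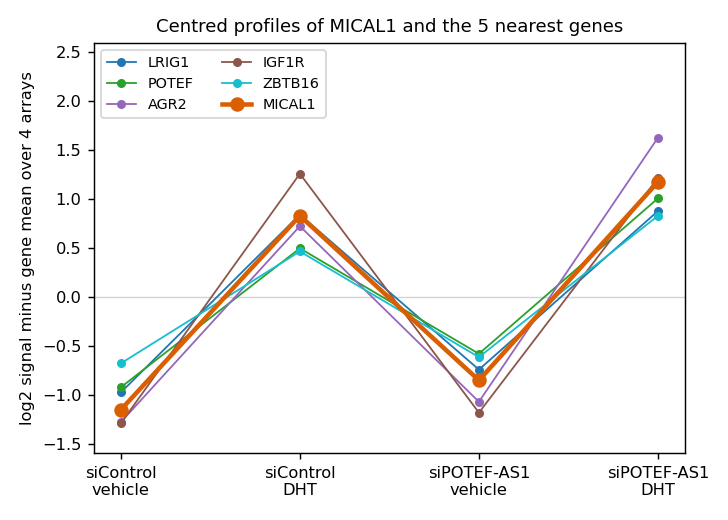
Log2 signal minus the gene's mean over the 4 arrays (vertical axis) on each array for MICAL1 (thick orange line) and the 5 genes nearest to it, 1 line per gene. All 6 are higher on both DHT arrays than on both vehicle arrays, and AGR2 departs most on the siPOTEF-AS1 DHT array.

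None of the named chromosome 6 genes found near MICAL1 came near its DHT difference. Coordinates were read only where a probe set's description gave them, so nearer named genes without coordinates may be missing. CCDC162P, a pseudogene 145 kb away at 109612231 to 109619832 (GRCh37), lay below the floor at 3.80 to 4.33, with DHT differences of 0.37 and 0.30 in the siControl and siPOTEF-AS1 arms. CDK19, the gene of a Mediator kinase, lies 1154 kb away on the other side at 110931181 to 111136519. Its log2 signal was 9.51 with vehicle and 9.46 with DHT in siControl cells, and 10.20 and 10.06 in siPOTEF-AS1 cells. It differed little with DHT and was higher with siPOTEF-AS1 in both treatments, at a limma adjusted p of 0.324. AK9, an adenylate kinase gene that RefSeq places close to MICAL1, was read at 3.57 to 3.70, below the floor. The other 6 genes nearest by the table's coordinates lay 7605 kb or farther away, and 5 of them were below the floor on all arrays. The sixth, the heat shock factor gene HSF2, differed by -0.02 and -0.07 with DHT. The genes directly beside or overlapping MICAL1 in RefSeq, SMPD2 and ZBTB24, are not analysed here by name.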

How the data were processed

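RNA of LNCaP cells was labelled with the Affymetrix whole transcript kit, per the labels' protocols. The deposited values are log2 signals per probe set, made by the authors by RMA in Affymetrix Expression Console, per the submitters' processing notes. RMA fits the arrays to a common distribution, so a change in total RNA per cell is removed, and differences of dim probe sets are compressed. No scanner intensity or detection call was used, and having only 4 arrays limits the precision. A second deposited table held the same values to within 1.78e-15.

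Genes were named by the table's symbol (2540 probe sets) or RefSeq accession (156). A further 55 with several symbols were left unnamed, 1 symbol was stored as a date, and 19068 carried only a UCSC identifier. A gene was represented by its brightest probe set. Differences are log2 differences between arrays. The knockdown was fitted with limma 3.58.1 in R 4.3.3 and Benjamini-Hochberg adjusted over all genes fitted. The fit was also run on simulated additive data, whose known knockdown effects were larger than the MICAL1 difference. That run does not bear on the MICAL1 result. Other values were computed with Python 3.11.15. The members and lists were chosen with earlier results of these data known. Named are MICAL1, listed pathway genes and markers that were measured, the 5 genes nearest in profile, neighbours in rank and on the chromosome, and, after their values were seen, examples from the Gene Ontology groups. Alternatives were other scalings, brightness filters, feature sets and thresholds. With 1 array per group, the p-values do not measure a spread between replicates. They rest on each gene's departure from equal DHT effects in both arms, pooled with that of all genes fitted, which may be technical.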

Additional observations from a re-analysis of the deposited data

How the results depend on the processing

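The DHT difference of MICAL1 kept its direction with arrays centred on their medians, quantile-normalised again or with the intensity trend removed, at 2.00 to 2.02 in siControl cells and 1.98 to 2.09 in siPOTEF-AS1 cells. The knockdown difference ranged from 0.27 to 0.37 in vehicle and from 0.32 to 0.35 in DHT under these settings. Its limma adjusted p was 0.263 to 1 over 8 alternatives, none under 0.05. The number of genes past 0.05 for knockdown was 0 of 1344 as deposited and 14 of 1339 after centring. It was 3 of 1344 with an intensity trend in the variance and 1 of 1340 with the trend removed, never MICAL1. In the centred fit limma gave all genes the same variance. By Pearson correlation 0 of the 5 genes nearest in profile remained; with the filter at the 75th percentile 4 did, and after centring 5. No array could be left out, since each group has 1. No paired analysis was possible because each group holds a single array, and single arrays per group limit every value given here.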

Other observations

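The MICAL1 probe set is annotated to a transcript with a retained intron, and 23 other expressed named genes were represented by a transcript of that class. Their median DHT difference was -0.03 with siControl and 0.06 with siPOTEF-AS1. None was 1.5-fold higher in both arms and 1 was 1.5-fold lower, against 2.46% and 1.64% of all expressed named genes, so the counts say nothing about the group. The lower one was the scavenger receptor gene COLEC12, with log2 signals of 9.81 and 9.76 with vehicle and 7.84 and 7.85 with DHT. The highest of the 23 was FAXDC2, a gene of the fatty acid hydroxylase family, at 0.42 and 0.34 from vehicle values below the floor. These genes were grouped after the annotation of MICAL1 was seen, and no test was made.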
